A study of Mus musculus with 2 samples.

Results

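Type 1 alveolar cells are the broad, flat epithelial cells that line most of the gas-exchange surface of the lung. They arise from the distal epithelial tips late in gestation, when the cells flatten and build the membrane, cytoskeletal and caveolar proteins by which they are recognised. The 10 marker genes described here are Ager, Hopx, Pdpn, Cav1, Rtkn2, Akap5, Clic5, Emp2, Gprc5a and S100a6. They were chosen by name, as the probe sets whose single gene symbol in the platform annotation is one of these, and all 10 were found, with 19 probe sets among 18193 named genes and 45037 probe sets. Ager and Pdpn are classical markers of the cell type, while Cav1, Pdpn and S100a6 are known from other lung cells as well.

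Whole lungs of mouse embryos at day 18 of gestation, shortly before birth, gave the total RNA, which was labelled with biotin and hybridised to Affymetrix arrays. The Nmyc9a group held 1 array, from pooled lungs homozygous for the Nmyc9a allele, a hypomorphic allele that lowers but does not remove the function of Mycn, a transcription factor of growth in the distal lung epithelium. The wildtype group held 1 array, from pooled normal lungs of the same day. How many lungs a pool held, of which strain and sex, is not stated in the sources used here. With 1 array per group there is no replicate check and no test, and precision is limited by the number of arrays.

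Values are linear signal intensities per probe set, after the array labelled Nmyc9a was multiplied by 0.977 to bring to 0 the median log2 ratio of probe sets whose mean signal was at or above a floor. The floor, 49.3, is the 40th percentile of all signals and marks what is treated as measured. Before scaling, the median signal was 77.7 on the array labelled Nmyc9a and 66 on the wildtype array. Sftpc, a surfactant gene of type 2 alveolar cells, read 8966 on the array labelled Nmyc9a and 8639 on the wildtype array. Mycn itself read 84.8 on the array labelled Nmyc9a and 66.3 on the wildtype array by its brightest probe set, and 85.4 and 51.1 by another, both close to the floor. These signals are not lower with the allele and so do not check the label. The ratio of the signals of 3' to 5' control probe sets, a sign of RNA integrity, was 0.683 on the array labelled Nmyc9a and 0.770 on the wildtype array for Gapdh, and 1.20 and 1.18 for beta-actin.

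S100a6, Pdpn and Hopx share a short promoter sequence. S100a6 and Pdpn were the lowest members by ratio, while Hopx stood at a log2 ratio of -0.03 by its brightest probe set and -0.44 by the other. Whether the sequence bears on the ratios was not tested. The sequence is CACGTG, the E-box that Myc family proteins bind. It reads the same on both strands, and neither of the other motifs searched contains it. The windows run from 250 bases before the annotated start to 30 bases after it, and the capitals mark CACGTG.
S100a6, GRCm38.p6 chr3:90612644-90612923, + strand: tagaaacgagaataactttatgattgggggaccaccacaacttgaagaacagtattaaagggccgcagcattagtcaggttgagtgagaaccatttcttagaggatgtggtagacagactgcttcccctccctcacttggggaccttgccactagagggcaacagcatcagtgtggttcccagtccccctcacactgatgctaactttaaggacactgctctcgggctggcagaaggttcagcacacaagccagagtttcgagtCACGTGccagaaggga
Pdpn, GRCm38.p6 chr4:143299535-143299814, - strand: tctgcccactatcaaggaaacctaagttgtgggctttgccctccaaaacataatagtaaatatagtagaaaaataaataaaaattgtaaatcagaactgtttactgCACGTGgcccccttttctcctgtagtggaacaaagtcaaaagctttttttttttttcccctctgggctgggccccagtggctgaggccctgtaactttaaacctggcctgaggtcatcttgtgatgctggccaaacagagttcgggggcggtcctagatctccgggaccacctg
Hopx, GRCm38.p6 chr5:77095238-77095517, - strand: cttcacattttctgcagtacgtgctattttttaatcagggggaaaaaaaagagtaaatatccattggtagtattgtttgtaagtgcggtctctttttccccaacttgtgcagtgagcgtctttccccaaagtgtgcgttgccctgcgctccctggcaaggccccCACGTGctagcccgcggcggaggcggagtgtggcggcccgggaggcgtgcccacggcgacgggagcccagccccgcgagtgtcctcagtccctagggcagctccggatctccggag
The sequences are RefSeq's, with 10 windows for 8 of the 10 members. In S100a6 the E-box begins at base 15 of the transcript, in Pdpn 144 bases before the start, and in Hopx 86 bases before 1 of its 2 annotated starts. Among all 32851 RefSeq promoter windows of this length, 6.79% held this E-box, against 3 of the 10 member windows. The member windows were richer in the dinucleotide CG, with a median of 13.5 against 6 in all windows. CACGTG itself contains CG, so the shares are not compared like for like. The Tead motif, searched as GGAATG on both strands, stood in 13.9% of all windows and in 0 of the 10 member windows. The motif of homeodomain factors of the Nk2 class, to which Nkx2-1 belongs, was searched as TNAAGTG on both strands and stood in 11% of all windows and in 0 member windows. With only 10 short windows, a count of 0 does not show that the members lack the Tead or Nk2 motif. A match describes the letters and not a bound site. These motifs were chosen with the array values known.

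Type 1 alveolar markers gave signals well above the floor on both arrays, and 9 of the 10 differed by less than 1.5-fold. Every one of the 19 probe sets was above the floor on both arrays, and the dimmest signal, 298 for an Akap5 probe set on the array labelled Nmyc9a, was 6.05 times the floor. By the brightest probe set of each gene, 8 of the 10 members read lower and 2 read higher on the array labelled Nmyc9a. Their median log2 ratio was -0.28, and the median of all 12600 measured genes was -0.09, with 58.7% of those genes below 0. Only S100a6 passed 1.5-fold, the size used here to call a difference, so 1 of 10 members was lower against 9.7% of all measured genes. None of the 10 was 1.5-fold higher, against 6.33% of all measured genes. None was 2-fold lower or higher, against 1.38% and 1.29% of all measured genes. A share of 1 in 10 is close to the background share. In whole-lung RNA, fewer cells of a type and less RNA per cell cannot be told apart.

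**Figure D1:**
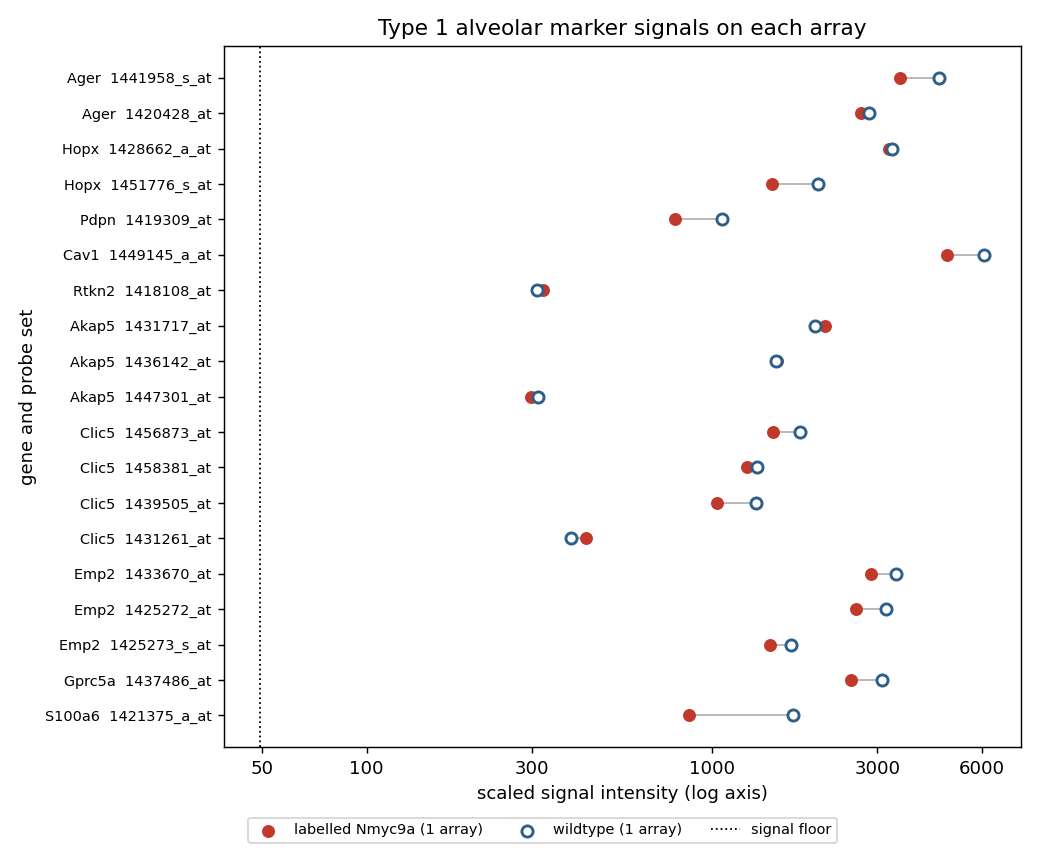
Scaled signal of each of the 19 probe sets of the 10 marker genes on a log axis, with filled points for the array labelled Nmyc9a, open points for the wildtype array and a dotted line at the floor of 49.3. All points lie well to the right of the floor, and S100a6 has the widest gap, 858 on the array labelled Nmyc9a and 1707 on the wildtype array.

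The error that these files allow is how far probe sets for 1 gene disagree. Their log2 ratios had a pooled SD of 0.40 over 5671 genes with several measured probe sets, and to 0.27 over 1315 genes when the comparison kept probe sets at least as bright as the dimmest one of the members. Among the 5 members with several probe sets it was 0.18, equal to 1.13-fold. Probe sets share the same RNA and are not replicates, so these SDs leave out the spread between animals and arrays.

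Among the membrane receptors, Ager encodes the receptor for advanced glycation end products, a multiligand receptor of the immunoglobulin superfamily that is abundant on type 1 cells. Its brighter probe set read 3479 on the array labelled Nmyc9a and 4507 on the wildtype array, 1.30-fold lower with the allele. The other read 2693 and 2840, a log2 ratio of -0.08. Both lay below 0, with a mean log2 ratio of -0.23 ± 0.21 (SD over 2 probe sets). Gprc5a, an orphan G protein-coupled receptor induced by retinoic acid, read 2507 on the array labelled Nmyc9a and 3084 on the wildtype array, a log2 ratio of -0.30. It has 1 probe set, and its ratio lay within the pooled SD of 0.40 over all genes but beyond the 0.27 of probe sets as bright as the members'.

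Among the membrane glycoproteins and tetraspan proteins, Pdpn encodes podoplanin, a mucin-type protein that links the membrane to the actin cytoskeleton through ezrin and moesin. Its single probe set read 779 on the array labelled Nmyc9a and 1064 on the wildtype array, 1.37-fold lower, and 17.5% of measured genes had a lower ratio. That difference was larger than the SD of 0.40 between probe sets but short of 1.5-fold. Emp2, epithelial membrane protein 2 of the Pmp22 family, gave the closest agreement between probe sets. They read 2880, 2609 and 1465 on the array labelled Nmyc9a, against 3391, 3173 and 1690 on the wildtype array. The mean log2 ratio was -0.24 ± 0.04 (SD over 3 probe sets), with all 3 lower and none below -0.28.

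Cav1 encodes caveolin-1, the coat protein of caveolae, the flask-shaped membrane pits that are dense in type 1 cells and in capillary endothelium. It read 4778 on the array labelled Nmyc9a and 6109 on the wildtype array, 1.28-fold lower. This is 62.7% of the brightest deposited wildtype signal before scaling, and linearity at so bright a signal was not tested. Clic5, an intracellular chloride channel family protein bound to the cortical cytoskeleton, has 4 probe sets that did not point one way. They read 1496, 1262, 1032 and 430 on the array labelled Nmyc9a, against 1796, 1349, 1334 and 390 on the wildtype array. The first 3 were lower, by log2 ratios of -0.26, -0.10 and -0.37, and the dimmest was higher by 0.14. Their mean was -0.15 ± 0.22 (SD over 4 probe sets), and 1 SD on either side of it includes 0.

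Among signalling proteins of the cell interior, Akap5 and Rtkn2 were the only members above 0 by their brightest probe set. Akap5 encodes an anchoring protein that holds protein kinase A and calcineurin near the membrane. Its probe sets read 2115, 1539 and 298 on the array labelled Nmyc9a, against 1978, 1526 and 314 on the wildtype array. Their mean log2 ratio under the reported scaling was 0.01 ± 0.09 (SD over 3 probe sets). After loess all 3 were above 0, at 0.32, 0.24 and 0.03. Rtkn2, rhotekin 2, read 325 on the array labelled Nmyc9a and 311 on the wildtype array, a log2 ratio of 0.06 from 1 probe set.

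Hopx, an atypical homeodomain protein that does not bind DNA itself and marks the type 1 lineage, depended on the probe set. The brighter read 3230 on the array labelled Nmyc9a and 3301 on the wildtype array, a log2 ratio of -0.03. The other read 1490 and 2018, a ratio of -0.44 (1.35-fold lower). The SD of the 2 ratios was 0.29, under the pooled SD of 0.40 over all genes and near the 0.27 of probe sets as bright as the members'. Which Hopx transcripts each probe set detects was not analysed here.

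S100a6, calcyclin, is a calcium-binding protein of the S100 family that many epithelial, mesothelial and stromal cells also make. It read 858 on the array labelled Nmyc9a and 1707 on the wildtype array, 1.99-fold lower, a log2 ratio of -0.99. Its ratio was larger than the pooled SD of 0.40, and 1.42% of measured genes had a lower one. S100a6 rests on 1 probe set, whose name ends in _a_at, so no other probe set bears on the value. Without S100a6 the median log2 ratio of the other 9 members was -0.26.

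**Figure D2:**
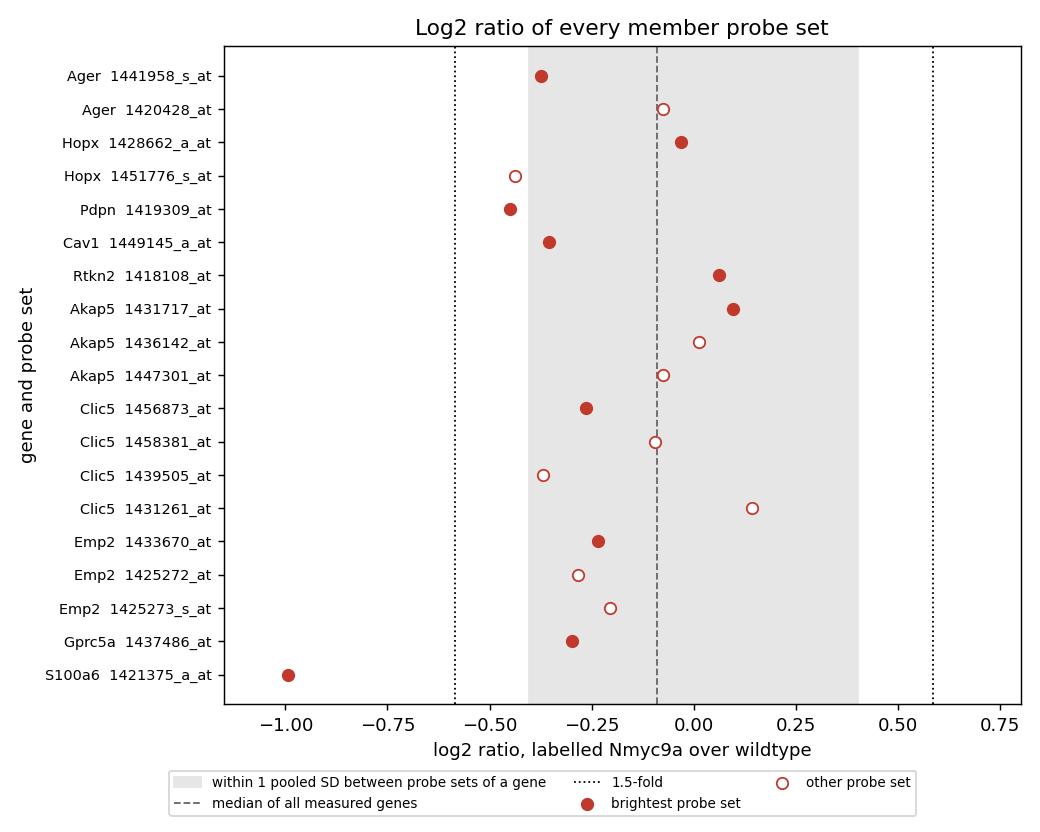
Log2 ratio (array labelled Nmyc9a over wildtype array) of each of the 19 probe sets, filled for the brightest probe set of a gene and open for the others. The grey band is 1 pooled SD of 0.40 between probe sets of a gene, the dashed line the median of all measured genes (-0.09) and the dotted lines 1.5-fold. S100a6 is the only point beyond 1.5-fold.

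The ratio between the arrays drifted with signal, and most of the markers are in the signal classes above 1000. The median log2 ratio was 0.07 for 3171 genes with a mean signal under 100, -0.08 for 5349 genes between 100 and 300, -0.18 for 3226 genes between 300 and 1000, -0.24 for 715 genes between 1000 and 3000 and -0.12 for 139 genes above 3000. Among the 3821 measured genes inside the signal range of the 10 members, 71.9% lay below 0, the median was -0.19, 11.4% were at least 1.5-fold lower and 2.46% at least 1.5-fold higher. The 80.0% of members below 0 and their median of -0.28 stand beside those values.

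**Figure D3:**
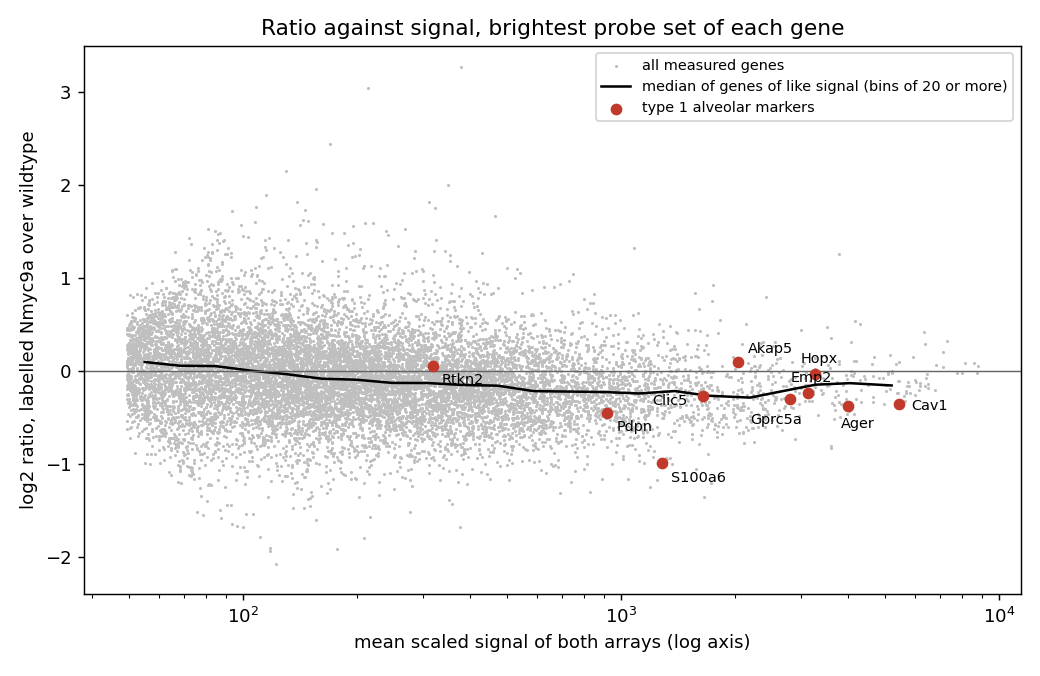
Log2 ratio (array labelled Nmyc9a over wildtype array) against the mean scaled signal on a log axis, for all measured genes in grey and the 10 markers in red, with a black line through the medians of genes of like signal. The line falls below 0 for bright genes, most markers lie near it, and S100a6 lies far below it.

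A loess curve on mean signal, fitted to remove that drift, raised every member. Ager, Hopx, Cav1 and Emp2 lie in the class above 3000, and each rose by more than its median of -0.12 would remove. Cav1, for example, went from -0.35 to -0.14. The median of the 10 became -0.05, and of the 19 probe sets 10 were then below 0 and 9 above it. S100a6 stayed lower at -0.76, past 1.5-fold. Pdpn stood at -0.23, Ager at -0.16, Cav1 at -0.14 and Gprc5a at -0.08. Emp2 and Clic5 came to -0.02 and -0.03, and Hopx turned above 0, at 0.19. Akap5 reached 0.32. Quantile normalization gave a median of -0.08. In both, S100a6 and Pdpn stayed at the low end and Akap5 at the high end. Under the reported scaling, neighbours from Pdpn to Emp2 in this order differed by less than the SD of 0.40 between probe sets.

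**Figure D4:**
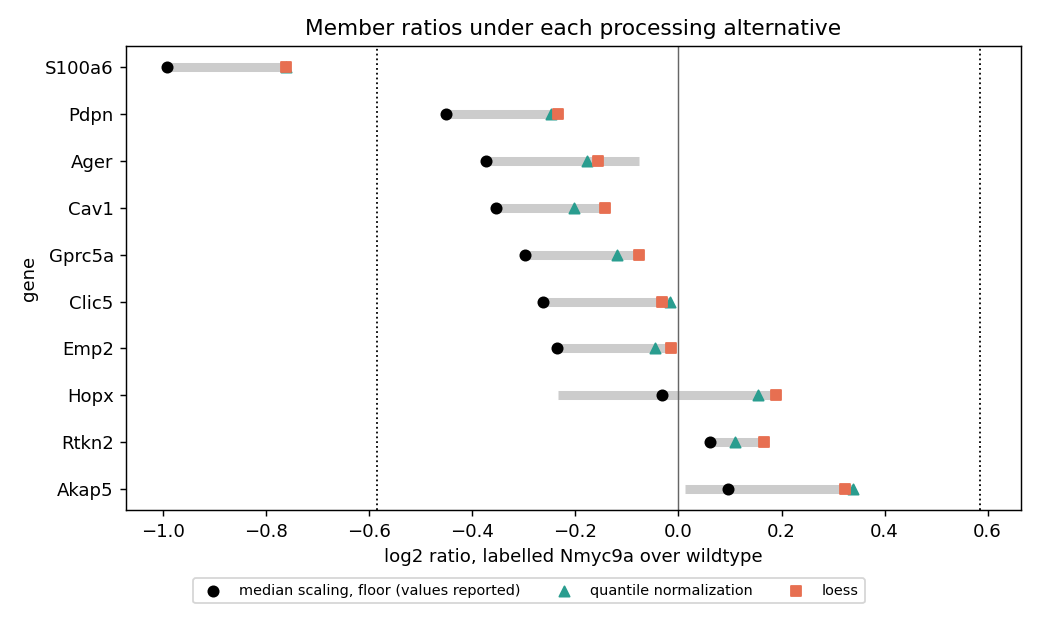
Log2 ratio (array labelled Nmyc9a over wildtype array) of each marker under every processing alternative, with a grey bar from the lowest to the highest value. Circles are the reported values, triangles quantile normalization and squares loess, and dotted lines mark 1.5-fold. S100a6 lies between -0.99 and -0.76, while Hopx crosses 0.

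A further list of 18 genes known from type 1 cells had 17 with a named probe set, and all 17 were measured. Of these, 5 were at least 1.5-fold lower while none was higher, against 9.7% and 6.33% of all measured genes. The list had 13 genes below 0, against 58.7% of all measured genes, and a median of -0.29. Among measured genes in the signal range of the 10 members, 71.9% lay below 0, with a median of -0.19, and 11.4% were 1.5-fold lower. Igfbp2, an insulin-like growth factor binding protein, read 81.9 on the array labelled Nmyc9a and 179.5 on the wildtype array, 2.19-fold lower. Krt7, a keratin of simple epithelia, read 770 and 1526, 1.98-fold lower. Tspan8, Sema3b and the water channel gene Aqp5 stood at -0.79, -0.78 and -0.71, although the 5 Tspan8 probe sets ran from -0.79 to 0.68. Sema3b was dim too, with 101 on the array labelled Nmyc9a and 174 on the wildtype array. At the high end, Agrn stood at 0.28, with its other probe set at 0.94, and Vegfa at 0.26. With the mean over probe sets, 1 gene was 1.5-fold higher. After loess the list median was -0.08, and 4 genes were 1.5-fold lower. When probe sets with the suffix _x_at, _s_at or _a_at were left out, 1 of 14 was.

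Genes grouped with the members were read list by list. Their counts stand beside 9.7% of all measured genes 1.5-fold lower and 6.33% higher. The list of caveola partners of Cav1 also held Flot1 and Flot2, flotillin genes that do not encode caveola coat proteins. Of its 8 measured genes, 1 was 1.5-fold lower and 1 higher, with a median of -0.31. Cavin3, a caveola coat protein, stood at -0.75, Flot1 at -0.49 and Cavin1, which caveolae require, at 0.03 by its brightest probe set and at -0.63 by the other. Without probe sets marked x, s or a in their names, which can match several transcripts, 2 of 7 genes of this list were lower and 1 was higher. Ehd2, which holds caveolae at the membrane, stood at 0.83, but its 5 probe sets ran from -0.52 to 0.90. Cav2, the partner of Cav1 in the coat, read 2014 on the array labelled Nmyc9a and 2469 on the wildtype array, a log2 ratio of -0.29, and its other probe set stood at 0.10.

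S100a6 belongs to a gene family clustered in part on mouse chromosome 3. Of 12 measured S100 genes and S100 binding partners, 3 were 1.5-fold lower, against 9.7% of all measured genes, and none was higher. The list had 11 genes below 0, against 58.7% of all measured genes, and a median of -0.41. In the signal range of the 10 members, 71.9% of measured genes lay below 0, with a median of -0.19, and 11.4% were 1.5-fold lower. S100a9, a neutrophil protein, read 528 on the array labelled Nmyc9a and 999 on the wildtype array, a log2 ratio of -0.92. S100a13 stood at -0.75, and Anxa2, an annexin that binds S100 proteins at membranes, read 2087 and 3247, a log2 ratio of -0.64. S100pbp stood at -0.23, and S100a5 at 0.32 or higher with a wildtype signal below the floor. After loess the list median was -0.27 and 1 gene, S100a9, was 1.5-fold lower. S100a3, S100a4 and S100b were below the floor by mean signal.

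The lists drawn up around Emp2 and Clic5 each included 1 gene past 1.5-fold. Of 6 genes of the Emp, Pmp22 and related list, Emp1 was 1.70-fold lower, with 1054 on the array labelled Nmyc9a and 1792 on the wildtype array. Pmp22 stood at -0.46 and Lim2 at 0.17. Epcam, an epithelial adhesion protein that is not of the Pmp22 family, stood at 0.52, with its other probe set at -0.56. Of 11 Clic family and membrane linker genes, Clic3 was 1.73-fold lower, with 783 on the array labelled Nmyc9a and 1354 on the wildtype array. Clic1 stood at -0.53, Podxl at 0.13 and Clic6 at 0.29, and the list median of -0.22 was 0.01 after loess. After loess neither Emp1 nor Clic3 passed 1.5-fold, at -0.53 and -0.57, while Epcam did on the higher side, at 0.73.

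A list of ligands and adaptors of Ager had 1 of 5 measured genes 1.5-fold lower, S100a9, with a median of -0.25. That median includes Mok, a protein kinase gene that is neither a ligand nor an adaptor of Ager. Diaph1, which carries Ager signals to actin, stood at -0.29, Adam10, which sheds its ectodomain, at -0.13, and Mok at 0.44. Of 5 genes of the Gprc5 family and the retinoic acid receptors, none passed 1.5-fold. Gprc5c, close to the floor on both arrays, stood at -0.40, Rarg at -0.26, Rara at 0.23 and Rarb at 0.43. The median of -0.18 turned to 0.23 with the floor at the 60th percentile or the mean over probe sets.

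Regulators of type 1 fate and targets of Yap, a mechanically controlled co-activator that favours type 1 fate, had 3 of 15 measured genes 1.5-fold lower, with a median of -0.15, and none was higher. The 3 were Ccn2, Ccn1 and Ajuba, and 9.7% of all measured genes were 1.5-fold lower. Ccn2, connective tissue growth factor, read 783 on the array labelled Nmyc9a and 1397 on the wildtype array, 1.79-fold lower, and Ccn1 read 304 and 489, 1.61-fold lower. Ajuba, a partner of the Hippo kinases, stood at -0.69. No regulator passed 1.5-fold by its brightest probe set, from Hdac2 at -0.42 and Wwtr1 at -0.25 to Srf at -0.01 and Nkx2-1 at 0.03. Other probe sets of Gata6, Klf5 and Hdac2 reached 0.76, 0.78 and 0.81, against -0.19, -0.15 and -0.42 for their brightest. After loess the median was -0.01 and 1 gene, Ccn2, was 1.5-fold lower. Without probe sets marked x, s or a, 2 of 13 genes were lower and 1 was higher.

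Lists for other lung cells show what else moved between the arrays. Their counts too stand beside 9.7% of all measured genes lower and 6.33% higher. Type 2 alveolar genes, from the surfactant-making neighbours of type 1 cells, had 2 of 16 genes 1.5-fold lower and 0 higher. Sftpd stood at -0.83, Slc6a14 at -0.63, Scd1 at 0.32 and Lyz2 at 0.32, and the other Scd1 probe set stood at 1.15. With the mean over probe sets, 1 gene was 1.5-fold lower and 2 were higher. The median log2 ratio was -0.28 for type 1 markers and 0.07 for type 2 genes, and -0.05 and 0.27 after loess. That difference was not tested. Broad epithelial genes had a median of -0.02, with Krt8 at -0.93, Cldn4 at -0.58, Spint2 at 0.27 and Epcam at 0.52. That median was 0.05 after loess.

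Pdpn, Cav1 and S100a6 are shared with cells other than type 1. All 16 endothelial genes were measured and none passed 1.5-fold, with a median of 0.04 and a summed signal of 13338 on the array labelled Nmyc9a and 13447 on the wildtype array. Emcn stood at -0.39, Icam2 at -0.29, Vwf at 0.46 and Flt1 at 0.55. Of 6 lymphatic genes, 5 were measured and none passed 1.5-fold, with summed signals of 2673 and 2445, and Prox1, which defines the lineage, was below the floor. Mmrn1 stood at -0.27, Sox18 at 0.09, Reln at 0.23 and Flt4 at 0.35.

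Of 11 mesothelial genes measured out of 12, 6 were 1.5-fold lower, 0 were higher and 5 did not pass that size. Over all measured genes, 9.7% were 1.5-fold lower and 6.33% higher. Their median was -0.76, with a summed signal of 4156 on the array labelled Nmyc9a and 7088 on the wildtype array. Aldh1a2 stood at -1.26, Krt19 at -1.17, Bnc1 at -0.10 and Muc16 at 0.34 or higher, with a wildtype signal below the floor, and Wt1 was below the floor by mean signal. The list includes Krt8, Krt18 and Krt19, which airway and alveolar epithelium also make. The part of mesothelium in the values of S100a6 and Pdpn was not tested.

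**Figure D5:**
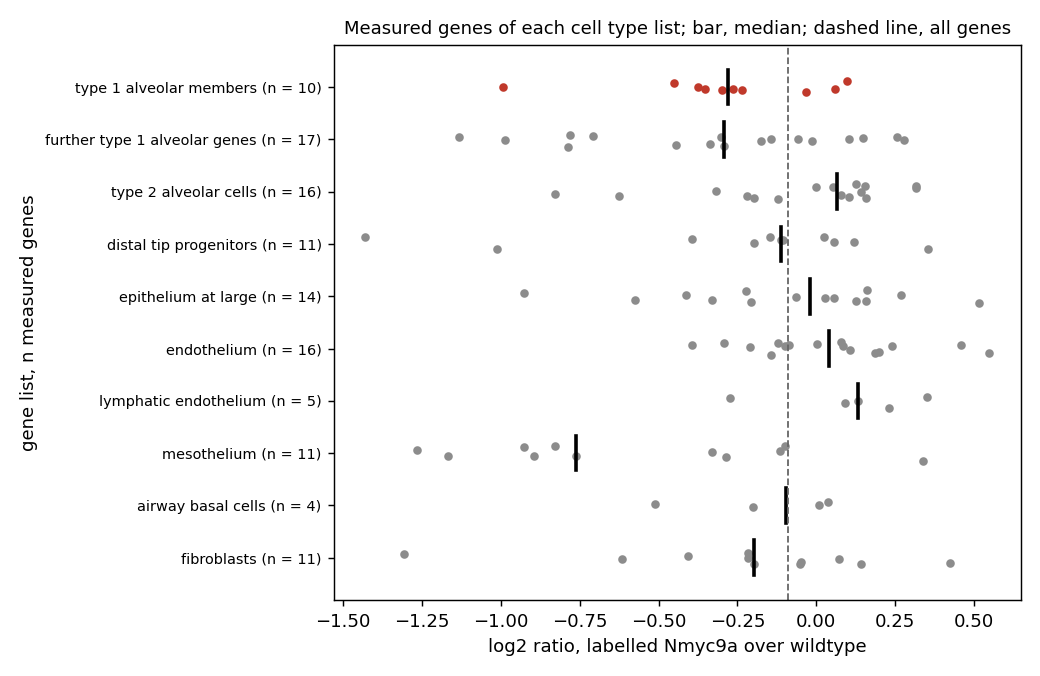
Log2 ratio (array labelled Nmyc9a over wildtype array) of every measured gene in each cell type list, 1 point per gene, with a black bar at the list median and a dashed line at the median of all measured genes (-0.09). The type 1 markers, in red, lie around -0.28, type 2 and endothelial genes around 0, and mesothelial genes at -0.76.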

How the data were processed

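The deposited values are linear signal intensities per probe set, 1 column per array. Per the labels, Trizol and an RNeasy kit were used for extraction, and biotin and the Affymetrix protocol for labelling. No source used here states the software, summary method or scaling. Without 64 control probe sets, 45037 remained. Of these, 34945 had 1 gene symbol, 932 several and 9160 none. Symbols were updated through Entrez identifiers to RefSeq GRCm38.p6 (34741 matched).

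The array labelled Nmyc9a was scaled by 0.977. Log2 ratios were taken after setting signals under the floor (40th percentile, 49.3) to the floor. A gene takes its brightest probe set, and 12600 of 18193 genes had a mean signal at or above the floor. No test was possible with 1 array per group, so genes were counted at 1.5-fold. The scaling and counting were tested on simulated data, with changes much larger than 1.5-fold in bright genes. That does not check how well differences near 1.5-fold are counted. Python 3.11.15, numpy 2.4.6, pandas 2.3.3 and statsmodels 0.14.6 were used.

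The markers are all named. Of 17 comparison lists, 1 is not reported here. From each of the others, the 2 highest and 2 lowest measured genes are named, and further genes were chosen after their values were seen. Members and lists were chosen with earlier results of these data known.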

Additional observations from a re-analysis of the deposited data

How the results depend on the processing

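The 9 processing alternatives were the deposited values, quantile normalization, loess (span 0.3), floors at the 20th and 60th percentiles, no floor, a pseudocount of 16, the mean over probe sets, and leaving out probe sets with the suffix _x_at, _s_at or _a_at. The median log2 ratio of the markers ran from -0.28 to -0.05 and stayed below 0 in each. The floor settings and the pseudocount left it at -0.28, because all marker signals lay at least 6.05 times above the floor. The deposited values shift all marker ratios alike. These alternatives therefore say little about how stable the marker values are. The count of markers 1.5-fold lower stayed at 1 except without those probe sets, where it was 0 of 7, because S100a6, Cav1 and Hopx have only such probe sets. It was also 0 with a 2-fold size rule. None was 1.5-fold higher in any alternative. Hopx ran from -0.23 to 0.19, and the other 9 markers kept their sign. Over all genes, the 797 that were 1.5-fold higher numbered 1659 under the 20th percentile floor and 356 under the 60th. List medians changed by less than the SD of 0.40 between probe sets in 151 of 153 comparisons. That is a loose bar, because all but the mesothelial and S100 medians were themselves smaller than 0.40 in size. Those of distal tip, airway basal, fibroblast, broad epithelial, Clic and Gprc5 lists crossed 0 in at least 1 alternative. Counts in lists moved by more than 1.5 times in 35 of 306. No paired analysis was possible because each group has 1 array. No spread between animals is measured, and the size of a marker difference that these arrays could resolve is not known.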

Other observations

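Cell lists next to the alveolar epithelium complete the comparison, again beside 9.7% of all measured genes 1.5-fold lower and 6.33% higher. Distal tip progenitor genes, from the cells that give rise to type 1 and type 2 cells, had 2 of 11 measured genes 1.5-fold lower and 0 higher. Their median was -0.11, and 0.02 after loess. Clu read 193 on the array labelled Nmyc9a and 520 on the wildtype array by its brightest probe set, a log2 ratio of -1.43, but its 4 measured probe sets reached -0.14. Foxp2, a repressor in the distal epithelium, stood at -1.01, with its 5 probe sets between -1.01 and -0.01. Cpm stood at 0.12 and Mycn at 0.36.

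Fibroblast genes had 2 of 11 lower and 0 higher. Their median was -0.20, and after loess it was 0.02 with 1 lower and 1 higher, the higher gene being Fn1 at 0.63. The proteoglycan gene Vcan read 96.0, a dim signal, on the array labelled Nmyc9a and 237.5 on the wildtype array, a log2 ratio of -1.31. Dcn stood at -0.62, while Col1a1 stood at 0.14 and Fn1 at 0.42, with its other probe set at 1.32. Of 6 airway basal genes, 4 were measured and none passed 1.5-fold. Krt15 stood at -0.51, Krt14 at -0.20 or lower with a signal below the floor on the array labelled Nmyc9a, Krt5 at 0.01 and Aqp3 at 0.04, and Trp63, which defines the lineage, was below the floor by mean signal.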
